A study of Mus musculus with 30 samples.

Results

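The CXC chemokine ligands are a family of small secreted proteins, and 10 of them were described here across 6 stromal cell populations of mouse mammary tumours: Cxcl1, Cxcl2, Cxcl3, Cxcl5, Cxcl9, Cxcl10, Cxcl12, Cxcl13, Cxcl14 and Cxcl16. They were chosen by gene name, and all 10 were among the 14118 genes of the count table. The tumours were mammary adenocarcinomas of 750 mm3 from 5 mice of the strain FVB/N-Tg(MMTVPyVT)634Mul/J, numbered 5, 6, 8, 10 and 11. In this strain the polyoma virus middle T antigen is driven by the mouse mammary tumour virus promoter, which is active in mammary epithelium, and all 6 groups came from tumours that carry it, with no healthy tissue beside them. Each tumour gave 1 library per population, so every group had n = 5.

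The populations were sorted by surface markers. Fibroblasts were CD45- CD31- CD90+ and were split into CAF1, which was CD34-, and CAF2, which was CD34+ (CAF stands for cancer-associated fibroblast). Endothelial cells were CD45- CD31+. Macrophages were CD45+ F4/80+ and fell, by the labels, into 3 groups by the mannose receptor CD206 and by MHC class II: CD206hi (CD206+ with low MHCII), CD206pos (CD206+ with high MHCII) and CD206neg (CD206- with low MHCII). For CD206neg of tumours 6 and 8 the column name in the table says high MHCII where the sample label says low, and the transcripts went with the column name. H2-Ab1, a chain of MHC class II, was at 9864 and 3932 CPM (counts scaled to a library total of 1e+06) in these 2 libraries, at 53.7 to 562 CPM in the other 3 of CD206neg, at 33.8 to 129.8 CPM in CD206hi and at 660.8 to 6465 CPM in CD206pos. Ciita, the master regulator of class II genes, was at 20 and 21.9 CPM in the 2 libraries and at 1.012 to 2.11 CPM in the other 3. Mrc1, which encodes CD206, was at 23.3 to 98.9 CPM in all 5 and at 604.4 CPM or more in the other macrophage groups. The groups of the labels were kept, so CD206neg joins libraries with low and with high class II transcripts. Tests on CD206neg are given below also without those 2 libraries, singly or as counts, except for the marker Ccr7.

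CXC ligands bind receptors with 7 membrane passes on leukocytes and endothelium and are classed by a Glu-Leu-Arg (ELR) motif. The ELR ligands Cxcl1, Cxcl2, Cxcl3 and Cxcl5 act on Cxcr2 and draw neutrophils. The interferon-induced ligands Cxcl9 and Cxcl10 act on Cxcr3 of activated T cells, Cxcl12 acts on Cxcr4 and is bound by the scavenger Ackr3, Cxcl13 acts on Cxcr5 of B cells, and Cxcl16 is made as a membrane protein that binds Cxcr6. In mammary tumours these ligands are known as signals by which stromal cells recruit and place leukocytes, and Cxcl12 also as a product of fibroblasts that acts on tumour cells.

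Library totals ran from 6292411 to 11957076 counts, so that 3 counts were worth 0.251 to 0.477 CPM. Levels are CPM of the library total, and fold changes come from edgeR with its TMM scaling factors, which averaged 1.45 in Endothelial and 0.81 in CD206neg, so a fitted fold and a ratio of CPM can differ. The markers of lineage matched the labels. The summed level of 8 macrophage markers was 9551 to 16613 CPM in the macrophage libraries and at most 33.8 CPM elsewhere. That of 7 fibroblast markers was 38178 CPM or more in the fibroblast libraries and at most 34.8 CPM in macrophages. That of 6 endothelial markers was 1699 to 4416 CPM in Endothelial and at most 34.8 CPM elsewhere. Fibroblast markers reached 101.5 to 1443 CPM in Endothelial. Luminal epithelial markers reached 202.6 to 1678 CPM in CAF1, 1.60 to 423.1 CPM in CAF2 and 197.6 to 2290 CPM in Endothelial. Pericyte markers reached 347.1 to 1966 CPM and myoepithelial markers 83.99 to 4086 CPM in CAF1. The part of these other cells in the results was not tested except where a value is given below. In bulk samples such as these, fewer cells of a type and less RNA per cell cannot be told apart.

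The genes of 7 of the 10 ligands lie on mouse chromosome 5. In the mm10 assembly, Cxcl5, Cxcl3, Cxcl1 and Cxcl2 stand within 146.6 kb (5:90759298-90905938, plus strand), and Cxcl9 and Cxcl10 within 27.56 kb (5:92321331-92348889, minus strand). Cxcl13 lies at 5:95956939-95961068, Cxcl12 at 6:117168535-117181368, Cxcl14 at 13:56288643-56296811 and Cxcl16 at 11:70454389-70459984. Promoter sequences are shown for Cxcl1, Cxcl2 and Cxcl3, which had their highest levels mostly in the same tumour, for Cxcl10, which had them in others, and for Cxcl12, which was not called between tumours. They are RefSeq sequences of GRCm38.p6 upstream of the annotated start, written 5′ to 3′ on the gene's own strand. Capitals mark matches to GGGNNNTTC on either strand, a form of the NF-kappaB motif, and in Cxcl10 also the match to GAAANNGAA, a form of the interferon-stimulated response element, which stands nearest the 5′ end.
Cxcl1 (chr5:90891125-90891244, plus): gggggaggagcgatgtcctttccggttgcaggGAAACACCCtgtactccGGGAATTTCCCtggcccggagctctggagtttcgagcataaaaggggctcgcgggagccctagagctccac
Cxcl2 (chr5:90903779-90903898, plus): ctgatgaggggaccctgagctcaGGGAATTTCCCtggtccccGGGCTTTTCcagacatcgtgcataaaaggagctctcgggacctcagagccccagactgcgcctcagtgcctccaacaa
Cxcl3 (chr5:90785981-90786100, plus): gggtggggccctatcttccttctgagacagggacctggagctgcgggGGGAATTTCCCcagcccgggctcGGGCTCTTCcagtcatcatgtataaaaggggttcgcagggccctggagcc
Cxcl10 (chr5:92348890-92349114, minus): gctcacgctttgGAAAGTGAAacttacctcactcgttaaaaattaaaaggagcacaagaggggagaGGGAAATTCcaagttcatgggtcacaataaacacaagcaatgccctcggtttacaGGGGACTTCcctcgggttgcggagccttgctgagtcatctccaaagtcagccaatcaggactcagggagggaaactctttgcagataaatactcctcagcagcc
Cxcl12 (chr6:117168415-117168534, plus): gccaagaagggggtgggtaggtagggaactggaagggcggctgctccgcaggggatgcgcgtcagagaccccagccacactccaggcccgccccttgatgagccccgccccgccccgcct
Windows of 250 upstream bases were found for 8 of the 10 ligands; Cxcl5 and Cxcl16 were not among them. GGGNNNTTC stood in 5 of these 8 windows (Cxcl1, Cxcl2, Cxcl3, Cxcl9 and Cxcl10) and in 11.8% of all 32851 windows searched on both strands. The longest stretch that the windows of Cxcl1, Cxcl2 and Cxcl3 share was GGGAATTTCCC, 11 bases that hold the first motif once on each strand. It starts at -71 in Cxcl1, at -97 in Cxcl2 and at -73 in Cxcl3, counted from the start. Its presence in these 3 follows from how it was found, so its share of all windows, 0.0426% (14 of 32851), is a description only. GAAANNGAA stood in Cxcl10 at -213, in Cxcl9 at -175 and in Cxcl14 at -172, and in 7.13% of all windows. TTCNNNGAA, the gamma-activated site, stood in Cxcl14 alone of the 8 (7.02% of all windows), and TGANTCA, the AP-1 motif, in Cxcl10 alone (6.75%). A match describes the letters of the window only.

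Which ligand a population made most of differed between the lineages. With counts divided by exonic length, Cxcl1 took the largest mean share of the 10 ligands in CAF1 (67.1% ± 9.6, SD, n = 5), in CAF2 (84.8% ± 5.4) and in Endothelial (80.8% ± 5.7). In the macrophages Cxcl2 came first, with 56.8% ± 4.2 in CD206hi, 49.5% ± 6.0 in CD206neg and 57.4% ± 3.6 in CD206pos, and Cxcl1 came after it with 36.2% ± 3.2, 29.6% ± 3.4 and 35.6% ± 3.4. Over tumours 5, 10 and 11 alone, CD206neg had 47.3% ± 3.5 of Cxcl2, 29.4% ± 3.8 of Cxcl1 and 18.5% ± 2.7 of Cxcl16. Next in line were Cxcl14 in CAF1 (26.6% ± 9.3) and Cxcl16 in CD206neg (16.8% ± 3.3), where CAF2 had 7.07% ± 3.9 of Cxcl14 and CD206hi 4.91% ± 2.5 of Cxcl16. The summed level of the 10 ligands was 989.2 ± 321.7 CPM in Endothelial, 5296 ± 1576 in CAF1, 7489 ± 1464 in CAF2, 8682 ± 2573 in CD206neg (7068 ± 39.0 over its tumours 5, 10 and 11), 11903 ± 2561 in CD206hi and 14079 ± 4464 in CD206pos.

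**Figure D1:**
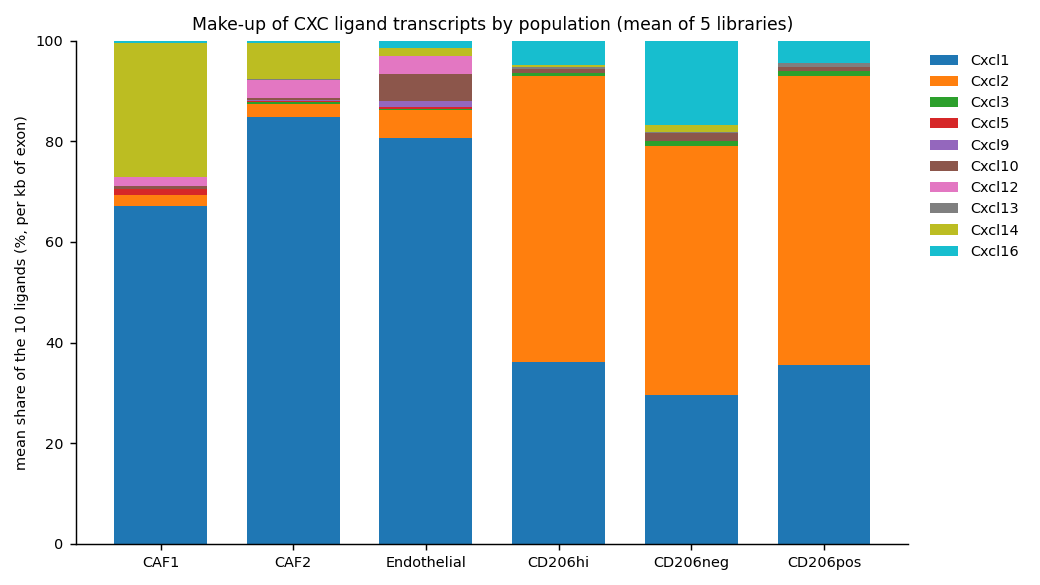
Mean share of each of the 10 CXC ligands in their summed counts per kilobase of exon (vertical axis, percent; mean of 5 libraries) for the 6 sorted populations. Cxcl1 fills most of the bar in both fibroblast groups and in Endothelial, and Cxcl2 has the largest share in the 3 macrophage groups.

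Cxcl1, a main neutrophil attractant, was high in 5 of the 6 populations. In CAF1 it stood at 2327, 5601, 3523, 3631 and 2102 CPM in tumours 5, 6, 8, 10 and 11, and in CAF2 at 5172, 8543, 3972, 5990 and 5100 CPM. The macrophage libraries lay between 1614 CPM (CD206neg, tumour 10) and 6926 CPM (CD206pos, tumour 6), and Endothelial at 1124, 895.4, 534.7, 348.1 and 664.7 CPM. Every endothelial library was thus below every library of the other groups. Cxcl1 was lower in Endothelial than in CAF1 (log2 fold change -2.76 ± 0.44 SE, edgeR quasi-likelihood adjusted p = 9.05e-06) and than in the macrophages (-3.06 ± 0.41, adjusted p = 1.54e-07). Between fibroblasts and macrophages the log2 difference was 0.02 ± 0.26 (edgeR adjusted p = 0.967), with an approximate 95% interval from -0.502 to 0.532. All 5 tumours had more Cxcl1 in CAF2 than in CAF1, but the difference did not pass the test (log2 -0.63 ± 0.39 for CAF1 against CAF2, edgeR adjusted p = 0.297).

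Cxcl2, which acts on the same receptor, divided the lineages more sharply. It ran from 2885 to 12226 CPM in the 15 macrophage libraries, from 38.9 to 264.7 CPM in the 10 fibroblast libraries and from 19.3 to 85.2 CPM in Endothelial. Fibroblasts and macrophages did not overlap, and Cxcl2 was lower in fibroblasts by a log2 fold change of -5.79 ± 0.39 (edgeR adjusted p = 7.12e-14). The number of Cxcl2 counts per Cxcl1 count was 0.0185 to 0.053 in fibroblast libraries, 0.0554 to 0.0952 in endothelial libraries and 1.41 to 2.44 in macrophage libraries, so the balance of the 2 ligands did not overlap between the lineages. CAF1 held 123.4, 204.4, 139.9, 107.7 and 38.9 CPM and CAF2 214.3, 264.7, 127.5, 186.8 and 154.3 CPM in the order of the tumours, which overlap. Among macrophages CD206neg held 2885, 7401, 4094, 3225 and 3304 CPM, CD206hi 6622, 9203, 5482, 4789 and 8278 CPM, and CD206pos 8784, 12226, 4823, 6453 and 8776 CPM. CD206neg was below both other groups in each tumour by CPM, but none of the 3 macrophage comparisons of Cxcl2 passed the test (edgeR adjusted p from 0.338 to 0.943). Without the CD206neg libraries of tumours 6 and 8, those against CD206neg again did not pass (edgeR adjusted p = 0.362 for CD206hi and 0.146 for CD206pos). With the tumour as a block and all libraries none passed either. With both changes, a setting chosen after seeing the data, Cxcl2 was higher in CD206pos than in CD206neg (log2 1.15 ± 0.34, edgeR adjusted p = 0.0246).

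Cxcl3, the third ELR ligand, parted the 2 fibroblast groups as well. CAF1 held 4.13, 9.27, 1.66, 8.55 and 2.20 CPM, and CAF2 held 54.5, 101.7, 22.0, 64.6 and 23.0 CPM. The groups did not overlap, and Cxcl3 was lower in CAF1 by a log2 fold change of -3.28 ± 0.57 (edgeR adjusted p = 0.00142). Macrophages ran from 37.6 to 538.6 CPM, which overlaps CAF2. Cxcl3 was lower in CAF2 than in CD206hi (log2 -1.55 ± 0.66, edgeR adjusted p = 0.0492), CD206neg (-1.71 ± 0.67, adjusted p = 0.0289) and CD206pos (-2.61 ± 0.69, adjusted p = 0.00176). The call against CD206neg was lost without its libraries of tumours 6 and 8 (edgeR adjusted p = 0.0691). Endothelial held 3.43, 2.37, 0.560, 0 and 0.237 CPM, and 3 of its 5 libraries held 6 counts or fewer. In every tumour CD206pos had more Cxcl3 than CD206hi and than CD206neg. With the tumour as a block, Cxcl3 was lower in CD206hi than in CD206pos (log2 -0.98 ± 0.19, edgeR adjusted p = 0.0237) and higher in CD206pos than in CD206neg (0.76 ± 0.19, adjusted p = 0.0092). Neither passed without the block (edgeR adjusted p = 0.786 and 0.319). The second was 0.72 ± 0.21 with the block and without CD206neg of tumours 6 and 8 (edgeR adjusted p = 0.0248; 0.378 without the block). Cxcl2 and Cxcl3 share 126 stretches of 50 bases, 5.84% of those of Cxcl2 and 3.51% of those of Cxcl3, so a small part of their reads could be counted for either.

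Cxcl5, the fourth ELR ligand, had its highest mean levels in the fibroblast groups. CAF1 held 75.1, 11.9, 81.6, 55.1 and 24.8 CPM and CAF2 28.4, 10.4, 27.5, 35.1 and 8.04 CPM. The groups overlapped, though CAF1 was higher in all 5 tumours. The difference missed the threshold in the unpaired fit (log2 1.24 ± 0.44, edgeR adjusted p = 0.0644) and passed with the tumour as a block (1.21 ± 0.26, adjusted p = 0.0134), by DESeq2 (adjusted p = 0.0214) and without the CAF1 library of tumour 6 (adjusted p = 0.0154). No macrophage library held more than 4 counts. Endothelial libraries held 4.10, 0.624, 16.8, 0 and 0 CPM. The 2 that led, tumours 8 and 5, were also those with the most fibroblast marker counts (1443 and 1013 CPM). Within Endothelial, tumour 8 also had the most pericyte marker counts (1720 CPM) and tumour 5 the most myoepithelial marker counts (1368 CPM). Pericyte and myoepithelial markers were also higher in CAF1 than in CAF2, with the means given below for Cxcl14. The part of any of these cells in the Cxcl5 levels was not tested.

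**Figure D2:**
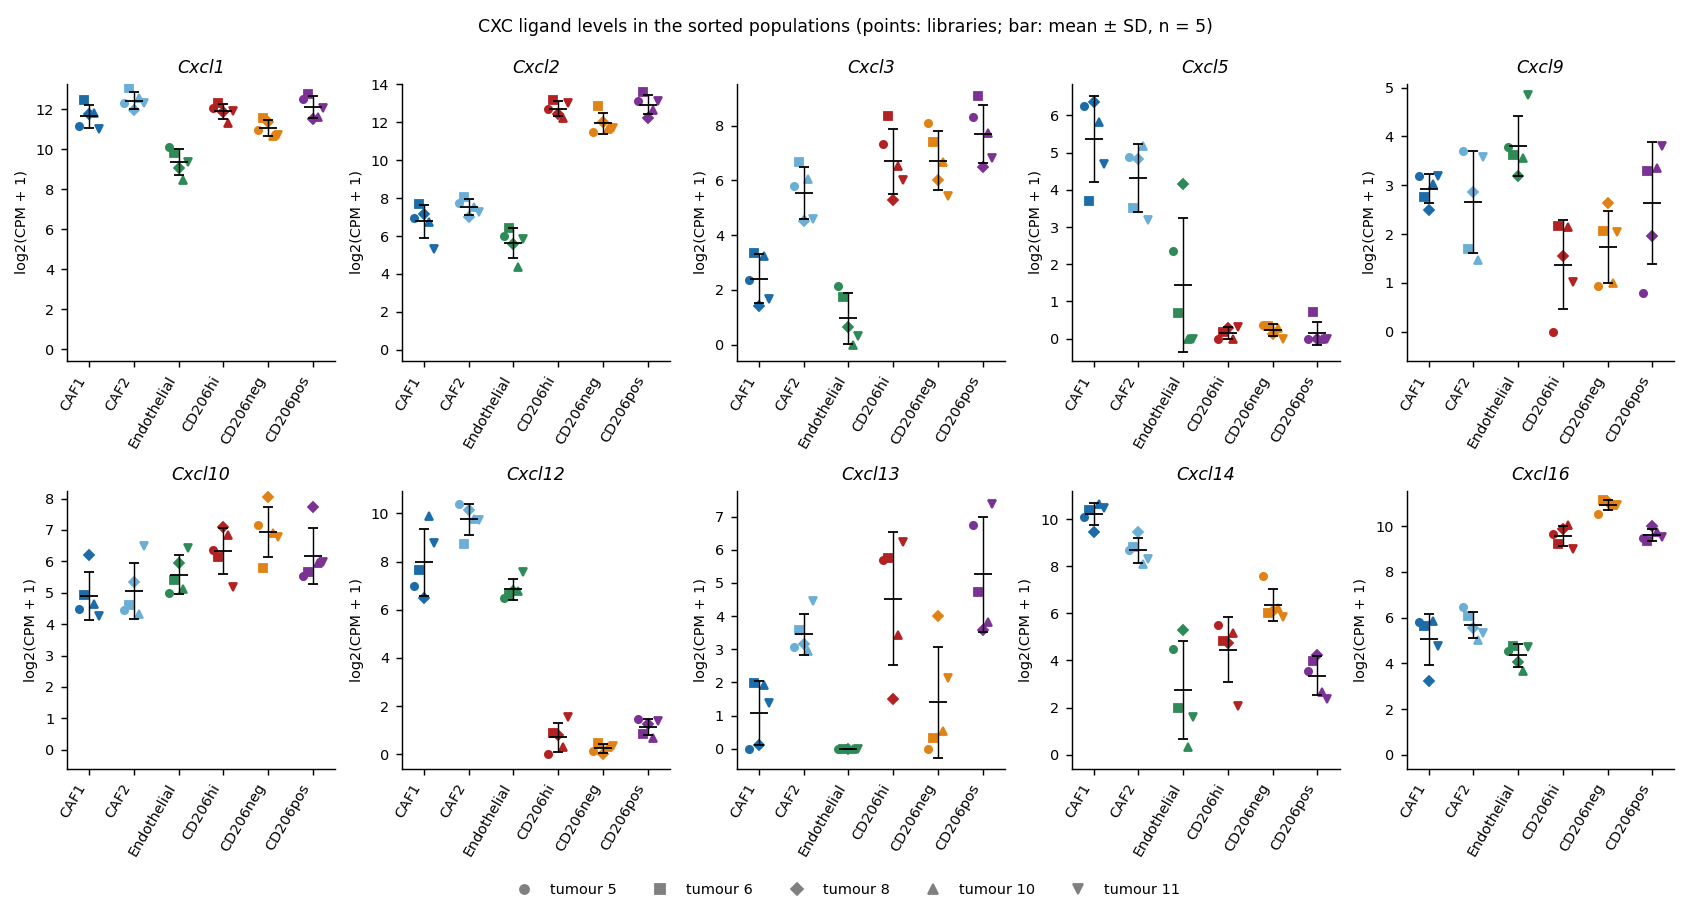
Level of each CXC ligand as log2(CPM + 1) in the 6 sorted populations; each point is 1 library, its shape gives the tumour, and the bar is the mean ± SD of 5 libraries. Cxcl2 and Cxcl16 were highest in macrophages, Cxcl12, Cxcl14 and Cxcl5 in fibroblasts, and Cxcl1 was lowest in Endothelial; each panel has its own vertical scale.

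Cxcl9, an interferon-induced ligand, had means of 1.98 to 14.1 CPM in the 6 groups. It was at 8.06, 5.78, 4.61, 7.20 and 8.08 CPM in CAF1, from 1.76 to 12.1 CPM in CAF2 and at 12.7, 11.4, 8.12, 10.9 and 27.6 CPM in Endothelial. In macrophages it ran from 0 to 12.95 CPM. Of the 15 pairs of groups, 1 differed for Cxcl9. Against all macrophages together, Cxcl9 was higher in Endothelial in 5 of 5 tumours (log2 1.27 ± 0.54, edgeR adjusted p = 0.0434). That call was lost on leaving out any 1 of 8 libraries, and the adjusted p rose to 0.22 (log2 0.86 ± 0.59) without Endothelial of tumour 11, the library at 27.6 CPM; the other 7 were Endothelial of tumours 5 and 6, CD206hi of tumours 8 and 11, CD206neg of tumours 5 and 10 and CD206pos of tumour 8 (adjusted p from 0.0511 to 0.0617).

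Cxcl10 was detected in every library. It stood at 21.6, 29.1, 72.8, 23.8 and 18.2 CPM in CAF1, at 21.0, 23.4, 39.2, 19.2 and 88.5 CPM in CAF2 and at 30.7, 41.3, 61.0, 33.5 and 85.7 CPM in Endothelial. Macrophages held 81.7, 69.7, 134.4, 112.5 and 35.1 CPM in CD206hi, 140.3, 54.3, 261.9, 117.6 and 109.0 CPM in CD206neg, and 45.3, 49.1, 212.7, 60.9 and 61.9 CPM in CD206pos. The lineages overlapped library by library, but within each tumour the fibroblast mean was below the macrophage mean. Cxcl10 was lower in fibroblasts than in macrophages (log2 -1.73 ± 0.30, edgeR adjusted p = 9.80e-06). CD206neg exceeded CD206pos in 5 of 5 tumours, which passed with the tumour as a block (log2 -0.95 ± 0.20 for CD206pos against CD206neg, edgeR adjusted p = 0.00232) and not without it (-0.89 ± 0.37, adjusted p = 0.115). Against CD206hi the difference also passed only with the block (-0.76 ± 0.20 for CD206hi against CD206neg, edgeR adjusted p = 0.0126; 0.231 without it). Without the CD206neg libraries of tumours 6 and 8 the blocked values were -1.17 ± 0.23 for CD206pos (edgeR adjusted p = 0.00209) and -0.97 ± 0.23 for CD206hi (adjusted p = 0.00848), and the unblocked adjusted p was 0.253 and 0.47.

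Cxcl12, which holds Cxcr4-bearing cells in place, marked the cells outside the macrophage gate. CAF2 held 1355, 420.6, 1135, 871.3 and 847.4 CPM and CAF1 126.0, 198.8, 89.4, 952.9 and 440.8 CPM. CAF2 was higher in 4 of the 5 tumours, and tumour 10 ran the other way. The difference did not pass the test (log2 -1.07 ± 0.61 for CAF1 against CAF2, edgeR adjusted p = 0.264), with an approximate 95% interval from -2.27 to 0.127. Endothelial libraries held 88.3, 97.5, 108.6, 108.4 and 188.0 CPM, lower than CAF2 by a log2 fold change of -3.32 ± 0.60 (edgeR adjusted p = 3.85e-05). Macrophage libraries held at most 17 counts (CD206pos, tumour 5) and at most 1.91 CPM (CD206hi, tumour 11). Cxcl12 was higher in fibroblasts than in macrophages by a log2 fold change of 9.72 ± 0.50 (edgeR adjusted p = 1.08e-16), a fitted value that leans on the few macrophage counts.

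Cxcl13, the B-cell attractant, was found mainly in the CD206+ macrophages and in CAF2. CD206hi held 51.2, 52.7, 1.83, 9.88 and 74.7 CPM, CD206pos 106.7, 25.7, 10.9, 13.3 and 166.2 CPM, and CD206neg 0, 0.265, 15.2, 0.445 and 3.39 CPM. Tumour 8 ran against the other 4, with more Cxcl13 in CD206neg than in either other group. CD206pos was higher than CD206neg by a log2 fold change of 4.10 ± 1.17 (edgeR adjusted p = 0.0245), or 5.54 ± 1.54 (adjusted p = 0.0368) without the CD206neg libraries of tumours 6 and 8. The call was lost without any 1 of the CD206neg libraries of tumours 6, 10 and 11 or the CD206pos library of tumour 11 (edgeR adjusted p from 0.0519 to 0.0799). CD206hi against CD206neg missed the threshold (3.33 ± 1.14, edgeR adjusted p = 0.0774, and 0.0854 without the 2 libraries) and missed it also with the tumour as a block and all libraries. With the block and without the 2 libraries, a setting chosen after seeing the data, it passed (5.37 ± 0.65, edgeR adjusted p = 5.18e-05). It also passed without CD206neg of tumour 8 (edgeR adjusted p = 0.0252) or CD206hi of tumour 8 (adjusted p = 0.0401). Dendritic cell markers summed to 6.35 to 261.1 CPM in CD206hi, 32.8 to 232.9 CPM in CD206pos and 10.4 to 21.5 CPM in CD206neg. Clec9a was at 0 in all 10 libraries of the last 2 groups. Most of the sum in CD206hi and CD206pos was Cd209a, with means of 109.96 and 130.93 CPM, against 0.326 CPM in CD206neg. Mean Zbtb46 was also lowest in CD206neg (0.663 CPM). Ccr7 ran the other way, with means of 1.46, 3.88 and 13.6 CPM in CD206hi, CD206pos and CD206neg. With all libraries, Ccr7 was called lower in CD206hi than in CD206neg (edgeR adjusted p = 0.00474). In CD206pos it was below CD206neg in every tumour and did not overlap, but missed the threshold (edgeR adjusted p = 0.067). Mean Xcr1 was close in the 3 groups (2.82 to 3.1 CPM). The part of dendritic cells in the Cxcl13 level was not tested.

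Among fibroblasts, CAF2 held 7.39, 11.1, 7.98, 6.77 and 21.0 CPM of Cxcl13 and CAF1 held 0, 2.95, 0.0922, 2.81 and 1.59, with no overlap. It was lower in CAF1 by a log2 fold change of -2.70 ± 0.82 (edgeR adjusted p = 0.0357). Leaving out CAF1 of tumour 8 or 11, or CAF2 of tumour 6, 8 or 11, ended the call (edgeR adjusted p from 0.0506 to 0.11), as did the fit of all 6 groups (0.117). The 5 endothelial libraries held no Cxcl13 count. Set against a floor of 3 counts per library there (0.338 CPM on average), the mean level was at least 32.1-fold higher in CAF2, 113-fold higher in CD206hi and 191-fold higher in CD206pos.

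Cxcl14, an ELR-negative ligand made by many epithelia and fibroblasts, was the one ligand called higher in CAF1 than in CAF2 by the unpaired test. CAF1 held 1109, 1340, 711.8, 1602 and 1434 CPM and CAF2 416.1, 458.8, 701.2, 271.4 and 320.4 CPM. The groups did not overlap, although tumour 8 had nearly equal levels, and with the TMM factors CAF1 was higher in 4 of 5 tumours. The log2 fold change was 1.70 ± 0.38 (edgeR adjusted p = 0.00682), and 1.69 ± 0.64 (adjusted p = 0.0721) in the fit of all 6 groups, which shares its spread with the other cell types. Myoepithelial and pericyte markers were also higher in CAF1 (means of 1080 and 1208 CPM, against 4.18 and 104.2 CPM in CAF2). The myoepithelial mean holds CAF1 of tumour 5 at 4086 CPM. Luminal epithelial markers reached 1678 CPM in CAF1 and 423.1 CPM in CAF2. The part of these cells in the Cxcl14 level was not tested. Endothelial libraries held 21.4, 2.995, 38.8, 0.231 and 2.01 CPM, with tumours 8 and 5 again the highest.

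Within the macrophages Cxcl14 was highest in CD206neg. CD206neg held 190.7, 64.1, 68.3, 74.4 and 56.7 CPM, CD206hi 45.1, 27.2, 25.5, 35.0 and 3.18 CPM, and CD206pos 10.7, 14.9, 17.7, 5.31 and 4.14 CPM. CD206neg lay above every library of both other groups. Cxcl14 was lower in CD206hi (log2 -1.93 ± 0.42, edgeR adjusted p = 0.00492) and in CD206pos (-3.24 ± 0.44, adjusted p = 0.000112) than in CD206neg, and without the CD206neg libraries of tumours 6 and 8 the values were -2.09 ± 0.48 (adjusted p = 0.0167) and -3.40 ± 0.49 (adjusted p = 0.00102). In the fit of all 6 groups the first of these missed the threshold (-1.96 ± 0.65, edgeR adjusted p = 0.0569). The 7 fibroblast markers summed to 5.65 to 31.9 CPM in CD206neg, 14.9 to 34.8 CPM in CD206hi and 6.71 to 25.8 CPM in CD206pos. The part of fibroblast RNA in the Cxcl14 level of macrophages was not tested.

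Cxcl16, the membrane-bound ligand that also takes up oxidised lipoprotein, was a macrophage transcript with its highest level in CD206neg. That group held 1495, 2235, 2112, 1957 and 1916 CPM, against 811.6, 590.1, 951.4, 1069 and 517.9 CPM in CD206hi and 706.6, 658.9, 1032, 860.7 and 727.9 CPM in CD206pos. There was no overlap between CD206neg and the other groups. Cxcl16 was lower in CD206hi than in CD206neg by a log2 fold change of -1.57 ± 0.30 (edgeR adjusted p = 0.00187), or -1.40 ± 0.32 (adjusted p = 0.0167) without the 2 CD206neg libraries with unlike names. For CD206pos the values were -1.57 ± 0.30 (edgeR adjusted p = 0.00165) and -1.41 ± 0.32 (adjusted p = 0.014). CD206hi and CD206pos differed by a log2 value of 0.00 ± 0.29, with an approximate 95% interval from -0.569 to 0.566. Fibroblasts held 8.29 to 86.3 CPM and Endothelial 11.5 to 26.5 CPM, and the log2 fold change of fibroblasts against macrophages was -4.90 ± 0.30 (edgeR adjusted p = 7.24e-15).

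**Figure D3:**
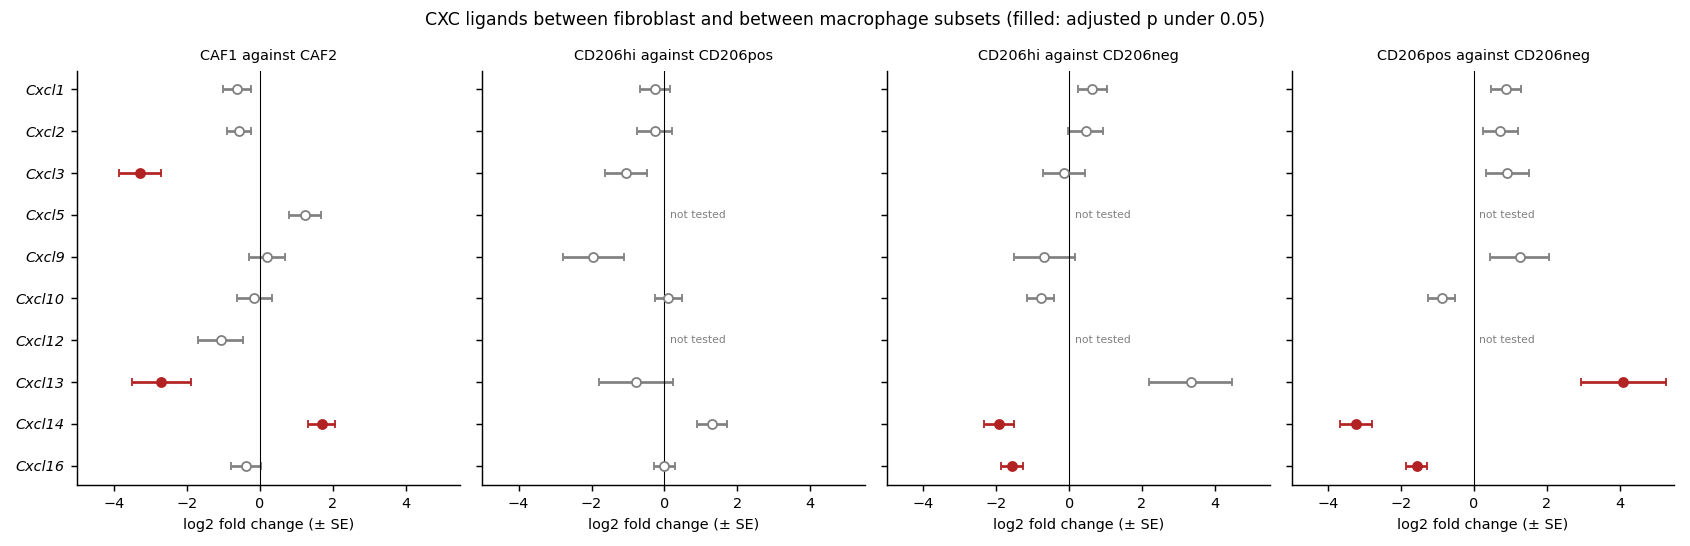
Log2 fold change (horizontal axis, ± SE, edgeR, unpaired) of each CXC ligand between the 2 fibroblast groups and between the 3 macrophage groups; positive values are higher in the group named first. Filled points have an adjusted p under 0.05: Cxcl3, Cxcl13 and Cxcl14 between the fibroblasts, none between CD206hi and CD206pos, Cxcl14 and Cxcl16 for CD206hi against CD206neg, and these 2 with Cxcl13 for CD206pos against CD206neg.

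Counted over the family, CAF1 and CAF2 differed in 3 of the 10 ligands (1 higher and 2 lower in CAF1), where 19.5% of all genes tested were called, 10.9% higher and 8.59% lower. The median log2 fold change was -0.47 over the ligands and 0.01 over all genes. CD206hi and CD206pos differed in 0 of 8 ligands tested by edgeR, where 0.190% of all genes were called; 2 of the 8, Cxcl9 and Cxcl14, had an unadjusted p under 0.05, and DESeq2 also called 0. With the tumour as a block the count was 1 (Cxcl3), where 97 of 11052 genes were called. CD206hi against CD206neg gave 2 of 8 (both lower in CD206hi, where 3.90% of all genes were lower and 6.14% higher) and CD206pos against CD206neg 3 of 8 (1 higher and 2 lower, where 14.7% of all genes were called, 8.85% higher and 5.85% lower). The block raised the last count to 6, adding Cxcl1 (log2 0.87 ± 0.28, edgeR adjusted p = 0.0303), Cxcl3 and Cxcl10. The number of all genes called rose with it, from 1625 to 2800 of 11052. Without the CD206neg libraries of tumours 6 and 8 the unpaired counts were again 2 and 3, of 9 ligands tested, where 4.75% and 8.11% of all genes were called. With the block they were 4 and 7 of the 8 ligands tested with all libraries, where 1787 and 2636 of 11471 genes were called. The 7 held Cxcl2 and Cxcl1 (1.09 ± 0.32, edgeR adjusted p = 0.0247) beside the other 5. With all macrophage libraries in the fit, Cxcl5 and Cxcl12 were too low there to be tested.

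Against the other lineages the shares were higher. Endothelial was lower than CAF1 in 8 of 10 ligands (34.7% of all genes called in either direction, 15.9% higher and 18.8% lower) and lower than CAF2 in the same number (46.0% in either direction, 23.7% higher and 22.3% lower), with Cxcl9 and Cxcl10 not called in either. These comparisons share the endothelial libraries. The median log2 fold change of the ligands was -2.33 and -3.05, against -0.00453 and 0.0498 over all genes; these medians hold the fitted value of Cxcl13, which is at 0 in Endothelial. Dissociation-induced genes such as Fos and Egr1, which respond to the 60 min digestion at 37 °C, were lower in Endothelial too, with 8 of 12 lower than in CAF1 and 5 of 12 lower than in CAF2; their part in the ligand levels was not tested. For Endothelial against CAF1, the calls of Cxcl3 (log2 -2.43 ± 0.80, edgeR adjusted p = 0.0185) and Cxcl13 (adjusted p = 0.0418) were the weakest. The Cxcl3 call was lost without CAF1 of tumour 6 or 10 or Endothelial of tumour 11 (edgeR adjusted p from 0.0501 to 0.0604), and the Cxcl13 call without CAF1 of tumour 6, 10 or 11 or any 1 of the endothelial libraries (0.0627 to 0.0881).

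Fibroblasts and macrophages differed in 8 of 10 ligands, 3 higher in fibroblasts (Cxcl5, Cxcl12 and Cxcl14) and 5 lower (Cxcl2, Cxcl3, Cxcl10, Cxcl13 and Cxcl16), where 68.1% of all genes were called, 37.3% higher and 30.8% lower. Endothelial against macrophages gave 10 of 10 (3 higher and 7 lower, where 61.3% of all genes were called, 36.5% higher and 24.7% lower). When the 6 groups were put in order by mean CPM for each ligand, 19 of the 50 neighbouring pairs differed by the edgeR test, 27 did not pass and 4 were not tested for low counts. Cxcl14 and Cxcl16 each differed in 13 of the 15 possible pairs of groups, Cxcl1 in 5 and Cxcl9 in 1. Of 30 tests of a ligand between CD206neg and a group of another lineage, 3 changed their side of the threshold without the 2 libraries, all against CAF2: Cxcl1 became higher in CAF2 (log2 1.24 ± 0.49, edgeR adjusted p = 0.0342), and Cxcl3 (adjusted p = 0.0691) and Cxcl14 (0.0774) were no longer called. Between single groups of different lineages, the share of all genes called was 53.3%, 56.9% and 56.0% for CAF1 against CD206hi, CD206neg and CD206pos, 53.8%, 58.0% and 56.3% for CAF2 against the same groups, and 51.6%, 55.0% and 54.3% for Endothelial. Cxcl1 had the order CAF2, CD206pos, CD206hi, CAF1, CD206neg and Endothelial, in which only the last step passed (log2 2.56 ± 0.43, edgeR adjusted p = 1.08e-05).

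Cxcl1, Cxcl2, Cxcl3 and Cxcl10 also differed between tumours. In a fit of all 30 libraries with the tumour number beside the population, 4 of the 10 ligands differed between tumours: Cxcl3 (edgeR F test adjusted p = 8.59e-05), Cxcl10 (0.00237), Cxcl2 (0.00736) and Cxcl1 (0.014), where 22.0% of all genes were called. Tumour 6 had the highest Cxcl2 in 6 of 6 populations, the highest Cxcl1 in 5 and the highest Cxcl3 in 4. In that fit tumour 6 stood above the mean of the tumours by a log2 value of 0.73 for Cxcl1, 0.87 for Cxcl2 and 1.38 for Cxcl3, and was below it for Cxcl10 (-0.27) and for the ELR ligand Cxcl5 (-0.88). Cxcl5 was not called between tumours (edgeR adjusted p = 0.134) and had its highest value in tumour 8 (1.34 above the mean). Without the CD206neg libraries of tumours 6 and 8 the 4 ligands were again called (edgeR adjusted p from 0.00037 to 0.0397), and Cxcl13 with them (0.0204). Cxcl10 followed other tumours, with its highest level in tumour 8 in 4 populations and in tumour 11 in the other 2 (0.74 and 0.48 above the mean on the log2 scale).

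Other lists moved with the tumours as well. Of 12 NF-kappaB target genes 8 differed between tumours, beside 22.0% of all genes, and their summed level was highest in tumour 6 in 4 of 6 populations. Luminal epithelial markers were highest in tumour 6 in 5 of 6. All 12 dissociation-induced genes differed between tumours, and their sum was highest in tumour 11 in 5 of 6 populations and never in tumour 6. Of 10 interferon-gamma target genes 4 differed, and their sum was highest in tumour 8 in 3 populations, in tumour 11 in 2 and in tumour 10 in 1. The part of these lists in the ligand levels was not tested, and cells of 1 tumour were digested and sorted together as far as the labels say, so tumour and handling cannot be told apart.

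**Figure D4:**
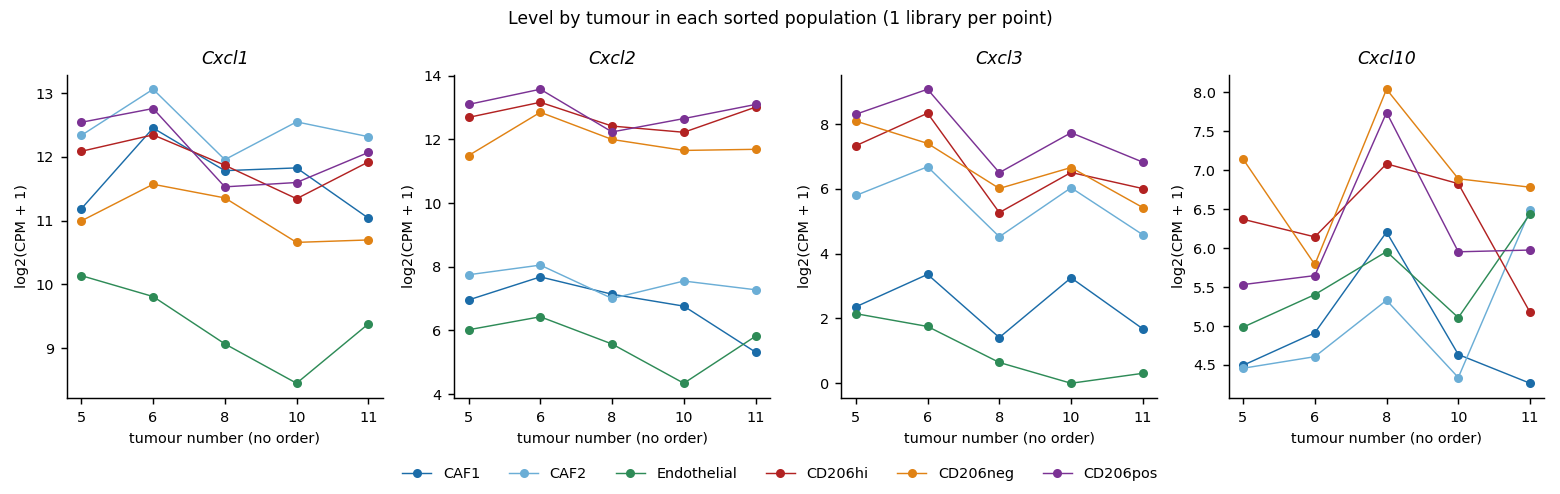
Level as log2(CPM + 1) of Cxcl1, Cxcl2, Cxcl3 and Cxcl10 in each tumour (horizontal axis, tumour number with no order), 1 point per library; lines join the libraries of 1 sorted population. Tumour 6 is the highest point of all 6 lines for Cxcl2 and of 5 for Cxcl1, and tumour 8 that of 4 lines for Cxcl10.

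The receptors of these ligands were set out in a different way. Cxcr1 and Cxcr2 were not analysed here. Cxcr4, the signalling receptor of Cxcl12, averaged 23.1 ± 3.4 CPM in CD206pos, 21.6 ± 10.8 in Endothelial, 19.97 ± 4.0 in CD206hi and 14.1 ± 4.4 in CD206neg, with at most 9 counts in any fibroblast library. The population with the highest Cxcl12, CAF2, therefore had the least Cxcr4 (at most 3 counts). Ackr3, which binds and removes Cxcl12, was at 1256, 808.9, 573.2, 1087 and 884.7 CPM in CAF2, at 77.0, 80.1, 27.5, 189.4 and 53.1 CPM in CAF1 and at 183.3, 86.6, 74.5, 174.8 and 98.7 CPM in Endothelial. It was lower in CAF1 than in CAF2 by a log2 fold change of -3.29 ± 0.45 (edgeR adjusted p = 0.000296) and lower in Endothelial than in CAF2 (-3.27 ± 0.50, adjusted p = 3.20e-06).

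Ackr1, a decoy receptor of venules that takes up ELR ligands, was at 209.2, 242.8, 71.5, 93.5 and 137.5 CPM in Endothelial and at 6.96 to 15.6 CPM in CAF2, with no overlap (log2 3.38 ± 0.51, edgeR adjusted p = 1.08e-05). CAF1 held at most 14 counts, lower than CAF2 (-4.45 ± 0.76, edgeR adjusted p = 0.00129), and the 15 macrophage libraries held 1 count at most. Cxcr3, the receptor of Cxcl9 and Cxcl10, had no count in any fibroblast library, at most 13 in Endothelial, and means of 9.13 ± 6.0 (CD206hi), 5.13 ± 4.2 (CD206pos) and 1.96 ± 1.3 CPM (CD206neg); none of the 3 macrophage comparisons passed the test (edgeR adjusted p from 0.0771 to 0.859). Ackr4, also a scavenging receptor, was lower in Endothelial than in CAF2 (-3.95 ± 1.0, edgeR adjusted p = 0.00344), at 5.18 ± 4.7 CPM in CAF2. Cxcr5 and Cxcr6 had means of at most 1.02 and 0.797 CPM in every group. Over the list, CAF1 and CAF2 differed in 2 of 3 receptors tested, both lower in CAF1, and none of the 2 tested differed among the macrophages. The share of all genes lower in CAF1 was 8.59%. When CD206neg of tumours 6 and 8 was left out, 0 of the 5 receptors then tested differed from CD206neg by edgeR.

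**Figure D5:**
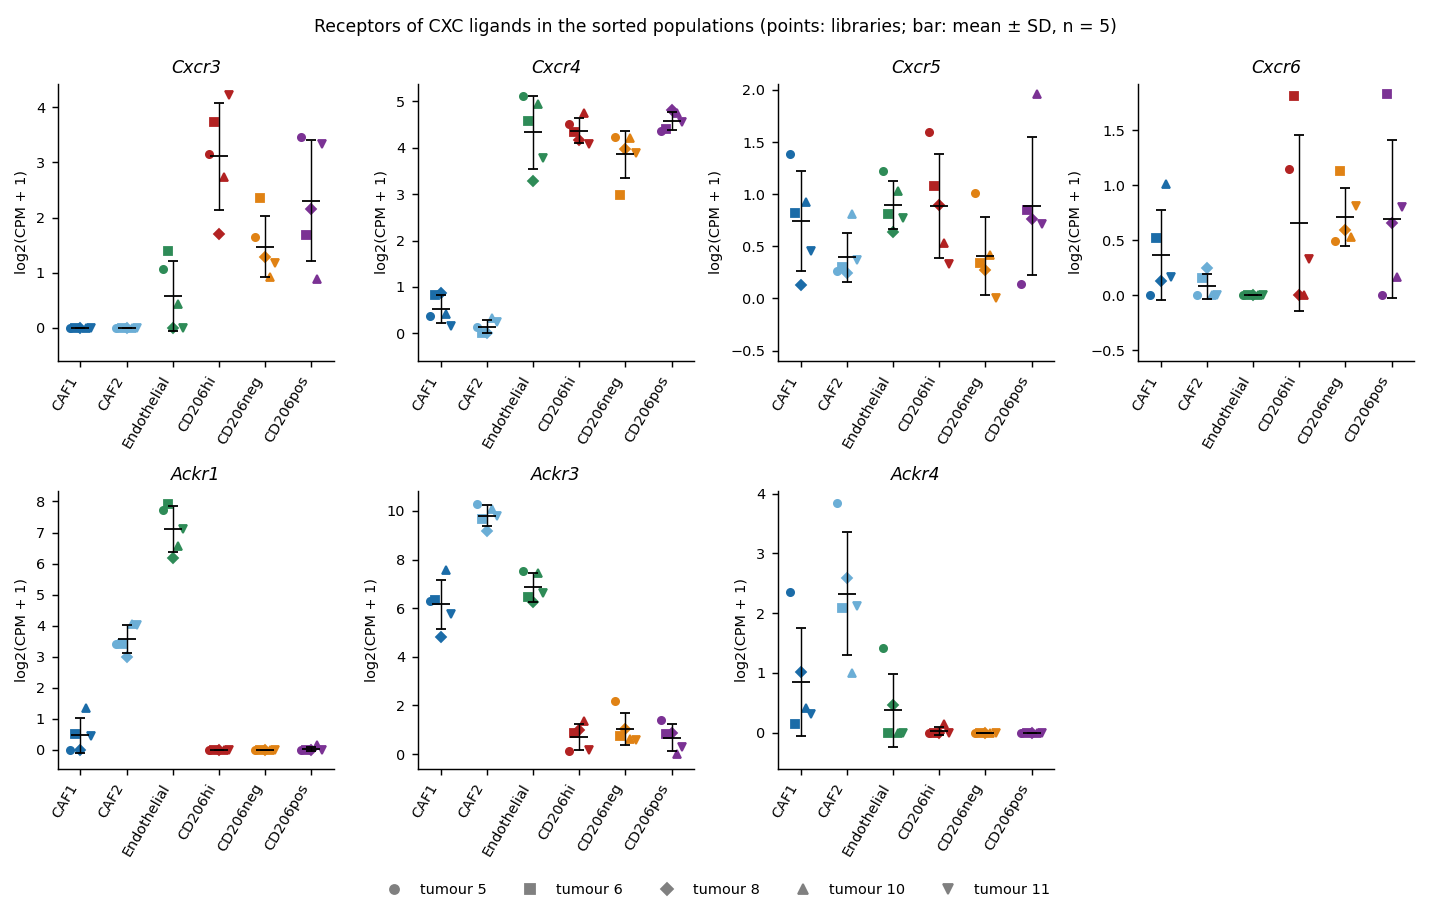
Level of 7 receptors of CXC ligands as log2(CPM + 1) in the 6 sorted populations; each point is 1 library, its shape gives the tumour, and the bar is the mean ± SD of 5 libraries. Ackr3 was highest in CAF2 and Ackr1 in Endothelial, Cxcr4 was found in Endothelial and macrophages, and Cxcr5 and Cxcr6 stayed near 0 in every group; each panel has its own vertical scale.

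Of the other CXC ligands, Cxcl15 and Cxcl17 were not analysed here. Pf4, the platelet factor that is also called Cxcl4, was at 713.1, 1471, 608.2, 970.5 and 994.5 CPM in CD206hi, at 1073, 1441, 703.6, 1326 and 1018 CPM in CD206pos and at 149.6, 27.4, 84.8, 39.9 and 39.2 CPM in CD206neg. CD206neg lay below all other macrophage libraries, with log2 fold changes of 3.86 ± 0.41 for CD206hi (edgeR adjusted p = 2.17e-05) and 4.09 ± 0.41 for CD206pos (adjusted p = 1.58e-05). On leaving out CD206neg of tumours 6 and 8 these were 3.74 ± 0.52 (edgeR adjusted p = 0.00091) and 3.96 ± 0.53 (adjusted p = 0.000936). This was the opposite order to Cxcl14 and Cxcl16. Of the 4 platelet markers, Itga2b and Ppbp were measured and Gp9 and Gp1ba were not analysed here. They summed to at most 8.19 CPM in macrophages, 3.53 to 27.5 CPM in fibroblasts and 6.87 to 57.9 CPM in Endothelial. The 2 markers ran opposite ways between CAF2 and Endothelial. Itga2b was lower in Endothelial than in CAF2 (means of 11.1 and 23.1 CPM, log2 -1.47 ± 0.43, edgeR adjusted p = 0.00558). Of the 57.9 CPM, in Endothelial of tumour 8, Ppbp gave 41.1 CPM. Cxcl11, a ligand of Cxcr3, was at 9.04 ± 5.0 CPM in Endothelial and was higher there than in CAF1 (3.79 ± 0.91, edgeR adjusted p = 0.00149) and CAF2 (4.53 ± 0.95, adjusted p = 0.000254). Ppbp, a platelet protein whose cut form acts on Cxcr2, was at 13.7, 3.12, 41.1, 15.4 and 0.237 CPM in Endothelial, at most 5 counts in CAF1 and 0 in all CAF2 libraries. It was called higher in Endothelial than in CAF1 (log2 5.77 ± 1.0, edgeR adjusted p = 6.93e-05), than in CAF2 (adjusted p = 3.13e-06) and than in macrophages (1.35 ± 0.58, adjusted p = 0.0467), although the endothelial library of tumour 11 held 2 counts.

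Enzymes and surface proteins that cut or hold the ligands were also measured. Dpp4, which trims and inactivates Cxcl12, averaged 349.8 ± 94.8 CPM in CAF2, against 17.4 ± 12.5 in CAF1 (log2 -4.09 ± 0.61 for CAF1 against CAF2, edgeR adjusted p = 0.000503), and at most 1.78 CPM on average elsewhere. Of the syndecans, heparan sulfate carriers that hold chemokines at the cell surface, Sdc1 (2.60 ± 0.31, edgeR adjusted p = 0.000127) and Sdc3 (2.45 ± 0.22, adjusted p = 1.90e-05) were higher and Sdc2 (-0.97 ± 0.28, adjusted p = 0.0262) was lower in CAF1 than in CAF2. Sdc4 had means of 96.6 ± 50.9 (CAF1) and 92.9 ± 13.1 CPM (CAF2) and was higher in macrophages (-2.43 ± 0.23 for fibroblasts against macrophages, edgeR adjusted p = 1.74e-10). The proteases that shed Cxcl16 were both lower in fibroblasts than in macrophages, Adam10 by -1.21 ± 0.17 (edgeR adjusted p = 2.61e-07) and Adam17 by -1.37 ± 0.15 (adjusted p = 2.81e-09). In all, 4 of these 7 genes differed between CAF1 and CAF2, 7 of 7 between fibroblasts and macrophages, and 0 of 6 tested in each macrophage comparison by edgeR, with or without the CD206neg libraries of tumours 6 and 8. The shares of all genes called were 19.5% and 68.1% in the first pair of comparisons.

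The regulator lists were read beside the ligands. Of 12 NF-kappaB target genes 10 were lower in fibroblasts than in macrophages and 0 higher, where 30.8% of all genes were lower and 37.3% higher. They were led by Nfkbie (log2 -3.21 ± 0.14, edgeR adjusted p = 5.50e-18). Their median was -1.25, against 0.103 over all genes. Between CAF1 and CAF2, 3 were higher and 1 lower (10.9% and 8.59% of all genes), with Nfkbie (0.85 ± 0.18, edgeR adjusted p = 0.00454) and Tnfaip3 (0.83 ± 0.19, adjusted p = 0.00711) higher and Nfkbiz lower (-0.77 ± 0.20, adjusted p = 0.0185) in CAF1. Of 10 interferon-gamma target genes, CD206hi had 0 higher and 3 lower than CD206neg (Gbp3, Gbp5 and Ciita; 6.14% and 3.90% of all genes), and CD206pos had 1 higher and 2 lower (Gbp7 higher, Gbp3 and Gbp5 lower; 8.85% and 5.85%). Without the CD206neg libraries of tumours 6 and 8, Gbp3 alone stayed called against CD206hi, while Ciita was at a log2 difference of -0.14 ± 0.71 (edgeR adjusted p = 0.959), so its call rested on those 2 libraries. Against CD206pos, Gbp3 and Gbp5 were again lower, Gbp7 missed the threshold (1.20 ± 0.36, edgeR adjusted p = 0.0518) and Ciita was higher in CD206pos (3.99 ± 0.73, adjusted p = 0.00376). With all libraries, Gbp3 was lower in CD206hi by a log2 fold change of -1.33 ± 0.21 (edgeR adjusted p = 0.000366).

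The genes most alike to each ligand over the 30 libraries, among 10182 genes, mostly followed its lineage. By Pearson's r of log2(TMM-scaled CPM + 1), which here describes 6 cell types in 5 tumours that share libraries and depth, Cxcl1 was most like the metallothionein Mt1 (r = 0.92), Metrnl (0.90) and Scpep1 (0.90). Cxcl2 was most like Renbp (r = 0.98), Ehd1 (0.98) and Cln8 (0.97), and Cxcl3 most like Dnase2a (0.94), Apobr (0.93) and Ehd1 (0.93). For Cxcl5 these were Prkg2, Ncam1 and Fbn2 (r from 0.96 to 0.97), and for Cxcl12 Nsg1, Pdgfd and Adamtsl1 (0.98 to 0.99). Cxcl14 was most like Ak1 (r = 0.95), Olfml3 (0.93) and Ptprs (0.91), Cxcl16 most like the macrophage phosphatase Acp5 (0.98), Man2b1 (0.98) and Abhd12 (0.98), and Cxcl13 most like Smpdl3a (0.92), Oas2 (0.88) and Rad51b (0.87). Cxcl10 came nearest to Psma1 (r = 0.90), Gtf2h2 (0.88) and Vdac2 (0.87), and Cxcl9 had no close match (Pqbp1, 0.69; Xaf1, 0.67; H2az2, 0.66). Among the ligands themselves the highest r was 0.94, between Cxcl2 and Cxcl16, then 0.90 between Cxcl2 and Cxcl3, and the lowest was -0.85, of Cxcl12 with both Cxcl2 and Cxcl16.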

How the data were processed

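RNA of 30 libraries was read from the deposited table of raw counts per gene, made by the authors. Per the submitters' processing notes the tools were Trimmomatic 0.36, HISAT2 2.0.4, SAMtools 1.3.1 and DESeq2 1.26, and the build was mm10. For the read counter, nothing is named in the labels or files, and its use of strand and its gene models are likewise not given in the sources used here. A second deposited table holds the counts divided by 1 factor per library (a signal, on no absolute scale), and was used as a check of the columns only. Per the labels' protocols the cDNA was made with a SMARTseq v4 kit, without molecular identifiers, so floors cover counting error only.

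Groups came from the sample labels. Genes were filtered with filterByExpr and tested with edgeR 4.0.16 (R 4.3.3; TMM, quasi-likelihood F test; p adjusted by Benjamini-Hochberg across every gene tested, called under 0.05), in fits of the 10 fibroblast libraries (12149 genes), the 15 macrophage libraries (11052) and all 30 libraries (13610) for pairs across lineages. The SE is the log2 fold change divided by the square root of F. Scripts were tested on simulated data. The alternatives were DESeq2 1.42.0, a block for the tumour, edgeR without its filter or with RLE in place of TMM, the fit of all 6 groups, and libraries left out; the test between tumours and the check of H2-Ab1 and Mrc1 were added after values were seen. The tumour numbers pair the libraries, since those of 1 number come from 1 mouse; libraries of the same tumour deviated together with correlations of 0.0205 to 0.381 in fibroblasts and 0.111 to 0.648 in macrophages. The named genes were all 10 ligands; the other CXC ligands, receptors and processing genes of fixed lists; up to 3 genes per comparison of each regulator list by smallest p; and the 3 genes most alike to each ligand. The members and lists were chosen with earlier results of these data known. Of the marker lists, neutrophil markers summed to at most 66.3 CPM in any library, and 1 of them, Csf3r, averaged 35.1, 40.9 and 41.4 CPM in CD206hi, CD206pos and CD206neg. The T-cell level was that of Cd4 alone, at 6.68 to 45.7 CPM in macrophage libraries and at most 0.675 CPM elsewhere. The B-cell level was that of Cd79b alone, at most 118.7 CPM (CAF1, tumour 8).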

Additional observations from a re-analysis of the deposited data

Results flagged for a closer look

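For independent values with a normal spread, Dixon's ratio passes 0.71 by chance in about 1 in 20 groups, and CPM on a linear scale need not follow this. A single library stood apart from the other 4 of its group, by that ratio above 0.71, in 10 of the 59 groups of values checked, each time as the highest. Cxcl10 did so in 3 groups, at 72.8 CPM in CAF1 of tumour 8 (others 18.2 to 29.1), 88.5 CPM in CAF2 of tumour 11 (19.2 to 39.2) and 212.7 CPM in CD206pos of tumour 8 (45.3 to 61.9). Cxcl2 was at 7401 CPM in CD206neg of tumour 6 (others 2885 to 4094), a library whose column name differs from its label. In Endothelial, tumour 8 had 16.8 CPM of Cxcl5 (others 0 to 4.10), and tumour 11 had 27.6 CPM of Cxcl9 (8.12 to 12.7) and 188.0 CPM of Cxcl12 (88.3 to 108.6). In CD206neg, tumour 8 had 15.2 CPM of Cxcl13 (others 0 to 3.39) and tumour 5 had 190.7 CPM of Cxcl14 (56.7 to 74.4). Cxcl5 in CD206pos was at 0.636 CPM in tumour 6 from 4 counts, against 0 in the others.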

How the results depend on the processing

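With the tumour as a replicate block, ligands called rose from 0 to 1 for CD206hi against CD206pos (97 of 11052 genes called). They rose from 3 to 6 for CD206pos against CD206neg (2800 of 11052 genes called). Cxcl5 for CAF1 against CAF2 and Cxcl10 for CD206hi against CD206neg passed with the block too. Of 74 values of single ligands 68 kept their side of the threshold and 6 passed it, none the other way. With the block and without CD206neg of tumours 6 and 8 (chosen after seeing the data) the counts were 4 for CD206hi and 7 for CD206pos against CD206neg, from 2 and 3. In that setting 1787 and 2636 of 11471 genes were called. In the fit of all 6 groups the count fell to 1 for CAF1 against CAF2 (from 3) and to 1 for CD206hi against CD206neg (from 2); the cause was not tested. DESeq2 moved 1 of 74 values past the threshold, RLE factors and no filter 0, and dropping CD206neg of tumours 6 and 8 moved 0 of 36. That drop did move 3 of 30 tests of a ligand between CD206neg and a single group of another lineage, as given above. It also added Cxcl13 to the ligands called between tumours. Leaving out 1 library at a time gave 2 to 4 ligands for CAF1 against CAF2, 0 to 0 for CD206hi against CD206pos, 2 to 3 for CD206hi against CD206neg, 2 to 4 for CD206pos against CD206neg, 6 to 8 for Endothelial against CAF1, 8 to 8 against CAF2, 8 to 8 for fibroblasts against macrophages, 9 to 10 for Endothelial against macrophages and 16 to 20 neighbouring pairs (chosen after seeing the data; 19 with all libraries). No value changed its direction past the threshold. With TMM-scaled CPM, 59 of 66 sums of listed genes moved by less than their SD. Ligands under about 3 counts (0.251 to 0.477 CPM), such as Cxcl5 in macrophages, were below what this depth can compare.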
